A study of Homo sapiens with 30 samples.

Results

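Messenger RNA levels of 39 genes that encode proteins of the spliceosome's small nuclear ribonucleoproteins (snRNPs) were examined in 8 libraries of HEK293FT, a transfectable human embryonic kidney line. The genes were taken by symbol from a list of named components and not by any measured value, though with earlier results of these data known. They comprised 7 Sm core genes, 8 LSm genes, 2 LSm genes of the U7 snRNP, 3 genes of U1 proteins, 4 genes of U2 and U2AF proteins, 8 genes of SF3A and SF3B subunits, and 7 genes of U4/U6 and U5 proteins. All 39 were among the 27630 genes of the count table, and all 39 passed the filter on low counts that left 16504 genes for testing. The 8 libraries fell into 4 groups of 2: a nuclear fraction, a cytosolic fraction, and a native and a PFA-fixed (paraformaldehyde) preparation labelled APEX NL RIP, called native lamina and PFA lamina below. Every group came from asynchronous HEK293FT cells transfected, with Lipofectamine 2000, with a construct of APEX2 and lamin B1. APEX2 is an engineered peroxidase that tags molecules near it, and lamin B1 is a protein of the lamina beneath the inner nuclear membrane. The construct was thus present in the cells of both fractions as well, and no unlabelled or untransfected library was analysed here. The labels do not say whether replicates came from separate cultures, so p-values measure the spread between these libraries, which may be technical.

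Introns are removed from pre-mRNA by the spliceosome, which is assembled from snRNPs. The Sm proteins form a ring of 7 subunits around the U1, U2, U4 and U5 snRNAs and are loaded onto them in the cytoplasm by the SMN complex. The related LSm proteins form a nuclear ring, with LSM8, on U6 snRNA and a cytoplasmic ring, with LSM1, that acts in mRNA decay. U1 marks the 5′ splice site, U2AF binds the 3′ splice site, and SF3A and SF3B are the subcomplexes of U2 that hold the branch site. The U4/U6.U5 tri-snRNP brings in PRPF8, the scaffold of the catalytic centre, and the helicase SNRNP200. The values below are levels of the mRNAs, not of the proteins, most of which act in the nucleus although all are translated in the cytoplasm.

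Total counts per library ran from 2321291 to 8557777, with PFA lamina replicate 2 the lowest, and the median member had 132 to 630 counts in a library. Strand was ignored in the counting, and reads in exons shared by genes were counted for each: such bases made up 12.2% of PRPF31 (with TFPT), 7.51% of SNRPD3 (with GUCD1), 4.24% of SF3A1 (with CCDC157) and 3.27% of EFTUD2 (with HIGD1B). The lowest count of any member was 9, for LSM6 in PFA lamina replicate 2. Levels are given as CPM, counts scaled to the library size after TMM normalisation. LMNB1, the gene of the fusion, had 3231 and 3507 CPM in the nuclear and 4197 and 6383 CPM in the cytosolic fraction. It reached 76513 and 26168 CPM in the native and 96237 and 81004 CPM in the PFA preparation. The labels do not say whether the construct had the same level in the cells of every group. The part of this LMNB1 difference in the comparisons of lamina with fraction libraries was not tested. The PFA libraries stood apart from each other, with a correlation of log2 CPM across tested genes of 0.916, against 0.961 to 0.970 within the other groups. PFA lamina replicate 1 correlated at 0.959 and 0.954 with the cytosolic libraries and at 0.951 and 0.908 with the native lamina ones. For PFA lamina replicate 2 these values were 0.898 and 0.898, and 0.954 and 0.945. The header of cytosolic replicate 1 names nuclear replicate 1 as its output but cytosolic replicate 1 as its input, and the library correlated at 0.970 with cytosolic replicate 2 and at 0.795 and 0.809 with the nuclear ones. All 4 HEK293 markers were detected. Of 9 markers of other cell types, HBG1, PTPRC, CD3E and INS were at 0, APOA1, PECAM1 and LYZ reached at most 3 counts in a library, and 2 passed 3 counts. The 9 together held 9.03 and 9.96 CPM in the nuclear libraries and 2.59 to 5.15 CPM in the other 6.

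The nuclear was set against the cytosolic fraction by the share of each fraction's RNA that an mRNA held. By this measure, 27 of the 39 genes were lower in the nucleus and 1, PRPF3, was higher. Over all tested genes, 21.2% were called lower and 26.1% higher at an adjusted p under 0.05 in edgeR's quasi-likelihood test with Benjamini-Hochberg adjustment. The median log2 fold change of the 39 was -1.11, against 0.13 for all genes tested. Both nuclear libraries lay below both cytosolic libraries for 34 of the 39, where 35.4% of all genes did so. The nuclear marker RNAs MALAT1 and NEAT1 together held 12819 and 21616 CPM in the nuclear libraries and 951 and 1276 CPM in the cytosolic ones. The 4 cytosolic marker mRNAs together held 899 to 1477 CPM in the nuclear and 5050 to 8548 CPM in the cytosolic libraries. A bulk library does not tell fewer cells holding an mRNA from less mRNA per cell. CPM is a share of a library, and the amount of RNA in each fraction did not enter it. A value called lower in the nucleus, here and below, thus does not say where most copies of an mRNA lay.

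**Figure D1:**
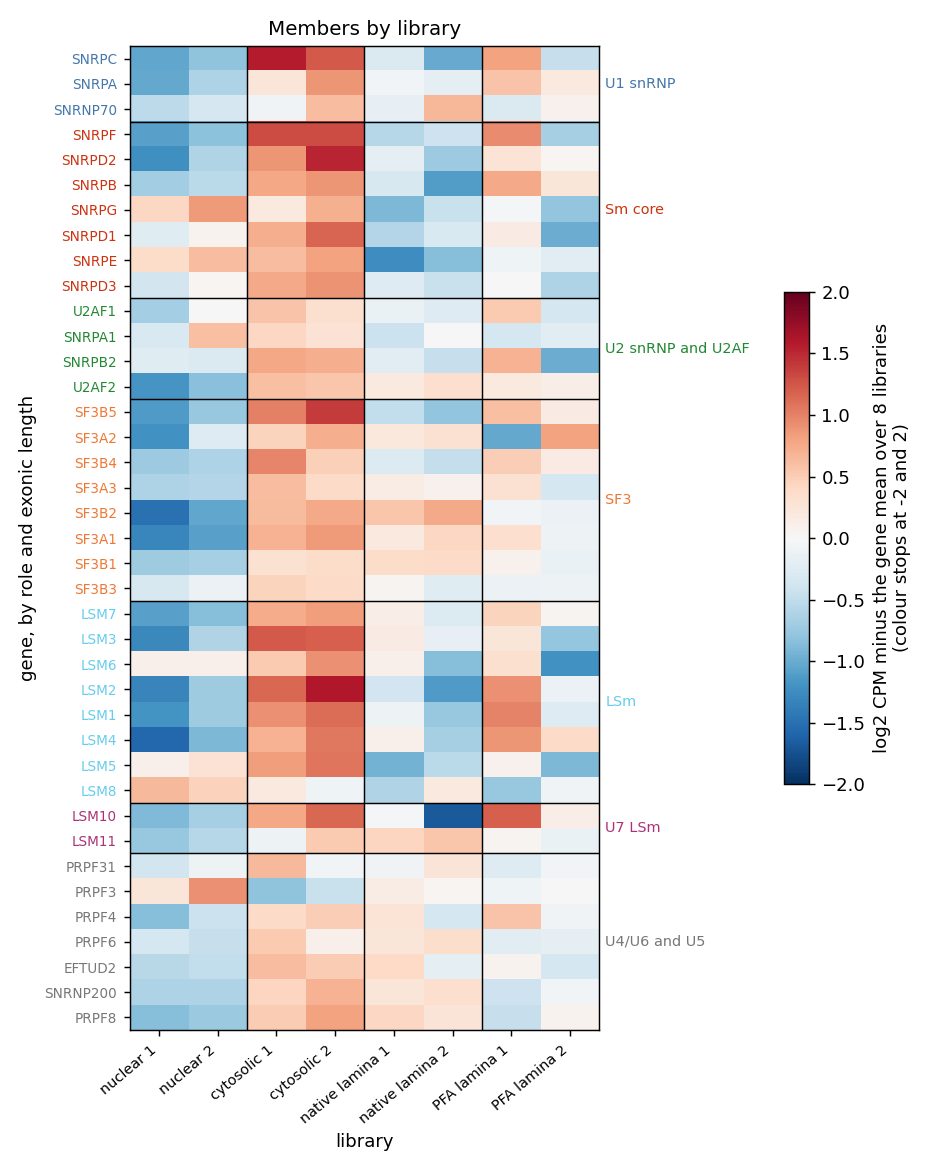
Colours give the log2 CPM of each of the 39 genes in each of the 8 libraries, minus the gene's mean over the 8, with genes on the vertical axis grouped by role and ordered by exonic length within it. Most rows are blue in the nuclear and red in the cytosolic columns, while PRPF3, LSM8, SNRPG and SNRPE are among the exceptions, red in the nuclear columns, and the Sm core rows turn blue again at the native lamina.

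Among the 7 Sm core genes, 5 were lower in the nucleus: SNRPF, SNRPD2, SNRPB, SNRPD1 and SNRPD3. SNRPF had 6.85 and 8.25 CPM in the nuclear libraries, 36.2 and 36.2 CPM in the cytosolic ones, 9.87 and 10.9 CPM at the native lamina, and 28.1 and 9.20 CPM at the PFA lamina. Its cytosolic libraries were the highest of the 8 and did not overlap the nuclear ones, and its log2 fold change, nuclear over cytosolic, was -2.26 (SE 0.44, adjusted p = 0.00178). SNRPD2 had 31.1 and 47.8 CPM in the nuclear and 134 and 209 CPM in the cytosolic libraries, a log2 fold change of -2.12 (SE 0.34, adjusted p = 8.53e-04). SNRPG was the exception in the ring. It had 20.4 and 27.7 CPM in the nuclear and 17.6 and 25.2 CPM in the cytosolic libraries, which overlapped, with a log2 fold change of 0.17 (SE 0.36, adjusted p = 0.717). SNRPE, whose value was -0.21 (SE 0.31, adjusted p = 0.587), was not called either. The proteins of SNRPE, SNRPF and SNRPG join in 1 subcomplex during ring assembly. The differences between the values of these 3 genes were not tested.

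Among U1 genes, SNRPC and SNRPA were lower in the nucleus. SNRPC, whose protein helps U1 to bind the 5′ splice site, had 16.2 and 19.1 CPM in the nuclear and 99.1 and 78.2 CPM in the cytosolic libraries. It had 27.4 and 16.7 CPM at the native lamina and 58.6 and 24.3 CPM at the PFA lamina. Both fractions were far apart for it, and its log2 fold change was -2.33 (SE 0.40, adjusted p = 0.0011). SNRNP70, the U1 protein that binds the snRNA's first stem-loop, had 137 and 156 CPM in the nuclear and 187 and 300.1 CPM in the cytosolic libraries, without overlap but with an adjusted p of 0.096 for its value of -0.73 (SE 0.34).

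Among the 4 genes of U2 and U2AF proteins, U2AF2 alone was lower in the nucleus. U2AF2, the large subunit that reads the polypyrimidine tract, had 87.3 and 111 CPM in the nuclear and 302 and 292 CPM in the cytosolic libraries, with a log2 fold change of -1.58 (SE 0.28, adjusted p = 0.00126). SNRPA1, which binds U2 snRNA, had 17.9 and 33.2 CPM in the nuclear and 29.4 and 26.9 CPM in the cytosolic libraries, which overlapped (log2 fold change -0.14, SE 0.34, adjusted p = 0.746). U2AF1, which reads the AG at the 3′ splice site, was not called at -0.75. All of its exonic bases are also counted for U2AF1L5, so its reads cannot be assigned to 1 copy.

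Of the 8 SF3 genes, 7 were lower in the nucleus, and the values of the 8 ran from -2.15 to -0.63. SF3B5, a small subunit of SF3B, had 13.7 and 17.9 CPM in the nuclear and 60.7 and 79.9 CPM in the cytosolic libraries, with no overlap and a log2 fold change of -2.15 (SE 0.31, adjusted p = 6.90e-04). SF3A1 and SF3B2, with 5143 and 2894 exonic bases, followed at -1.97 and -1.94. SF3B1, whose protein clamps the branch site and is recurrently mutated in myeloid neoplasms, was at -1.03. SF3B3 had the highest SF3 level in CPM, with 509.8 and 584 CPM in the nuclear and 865 and 829 CPM in the cytosolic libraries. It was the SF3 gene not called, at -0.63 (SE 0.30, adjusted p = 0.0956), although its libraries did not overlap.

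Among the 8 LSm genes, 5 were lower in the nucleus: LSM1, LSM2, LSM3, LSM4 and LSM7. LSM2, a subunit of both LSm rings, had 7.63 and 11.7 CPM in the nuclear and 42.4 and 57.9 CPM in the cytosolic libraries. Its log2 fold change of -2.38 (SE 0.41, adjusted p = 0.00115) was the lowest of the 39. LSM8, which defines the nuclear ring, leaned the other way, with 43.3 and 38.0 CPM in the nuclear and 31.4 and 26.0 CPM in the cytosolic libraries. These did not overlap, and its value of 0.50 (SE 0.34) had an adjusted p of 0.236. LSM1, which takes its place in the cytoplasmic ring, was at -1.94 (SE 0.47, adjusted p = 0.00523). The difference between the values of LSM1 and LSM8 was not tested. Of the exonic bases of LSM1, 12.3% are shared with BAG4 and counted for both genes.

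Both LSm genes of the U7 snRNP, which cuts the 3′ ends of replication-dependent histone mRNAs, were lower in the nucleus. LSM10 had 5.60 and 6.53 CPM in the nuclear and 17.6 and 23.0 CPM in the cytosolic libraries (log2 fold change -1.74, SE 0.51, adjusted p = 0.0143). LSM11 had 31.3 and 35.9 CPM in the nuclear and 49.3 and 76.5 CPM in the cytosolic libraries, a log2 fold change of -0.90 (SE 0.29, adjusted p = 0.0217), which was -0.58 without cytosolic replicate 2.

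Of the 7 tri-snRNP genes, 5 were lower in the nucleus, 1 was higher and 1 was not called. PRPF8 had 482 and 519 CPM in the nuclear and 1225 and 1514 CPM in the cytosolic libraries, with a log2 fold change of -1.45 (SE 0.33, adjusted p = 0.00382). PRPF3, a protein of U4/U6 (hg19, chr1:150293917-150325704), had 65.4 and 104 CPM in the nuclear and 31.7 and 40.6 CPM in the cytosolic libraries. It had 61.6 and 56.9 CPM at the native lamina and 52.1 and 54.8 CPM at the PFA lamina, between the fractions in all 4 libraries. Its log2 fold change was 1.23 (SE 0.30, adjusted p = 0.00526), opposite to its partner PRPF4 at -1.06 (SE 0.32, adjusted p = 0.0164). The call of PRPF3 was lost without nuclear replicate 2 (0.84, adjusted p = 0.0814) and without cytosolic replicate 1 (1.04, adjusted p = 0.0626).

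**Figure D2:**
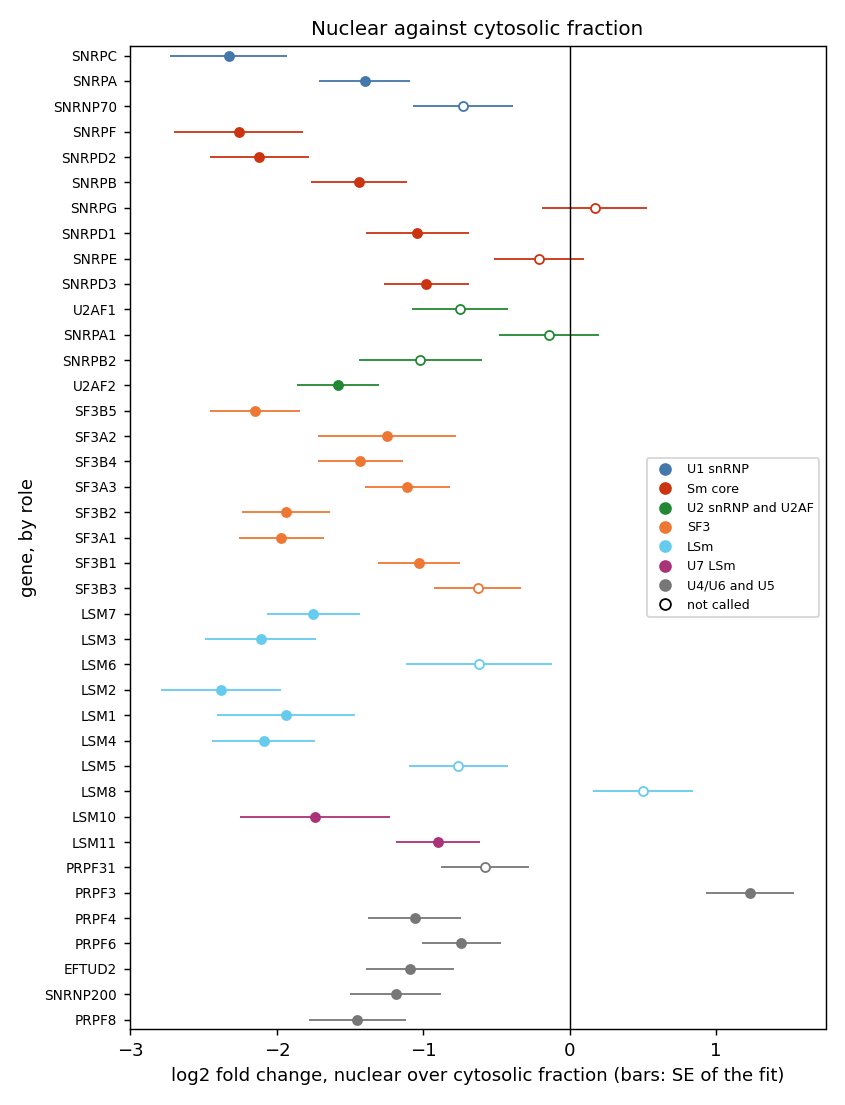
Points give the log2 fold change of each gene, nuclear over cytosolic fraction, and bars give its standard error in the edgeR fit. Filled points passed an adjusted p of 0.05, open points did not. The 27 filled points left of 0 reach -2.38 for LSM2, and PRPF3 at 1.23 is the filled point to the right.

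The count of 28 called genes fell to 16 (15 lower, 1 higher) without nuclear replicate 1. Of the 28, 24 kept their call under each other scaling, filter, tool and design tried, and 15 also without each single library. Members shorter than 2000 exonic bases were lower in 15 of 22 cases, where 29.1% of all such genes were, and longer members in 12 of 17 cases, where 18.4% were.

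Further genes of the pathway were taken from lists of symbols. Over all tested genes, 26.1% were higher and 21.2% lower in the nucleus, with a median of 0.13. Of 49 other spliceosome genes, 48 were tested, of which 3 were higher and 22 lower in the nucleus, with a median of -0.84. ZCRB1, a protein of the minor spliceosome, was at -2.32, and SF3B6, the SF3B subunit near the branch site, at -2.23. PRPF38B and the kinase PRPF4B, at 1.41 and 1.79, were higher. Of 17 genes for snRNP assembly and import, 1 was higher and 7 lower, with a median of -0.80. The SMN-complex genes STRAP (-1.98), GEMIN6 (-1.68) and GEMIN4 (-0.83) were lower, and TGS1, which hypermethylates the snRNA cap, was higher at 0.87.

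Promoter sequence was examined for features shared by the genes. RefSeq windows of 250 bases before the gene start, on the GRCh38.p14 build, were matched by symbol for 34 of the 39 genes, taking the first start listed where a gene has several. The ETS-family motif CCGGAAG, searched on both strands, was present in 16 of the 34 (47.1%), against 14.4% of the windows of 11820 tested genes and 8.52% of all 35116 windows. The GC box GGGCGG was present in 58.8% against 65.0% of tested genes' windows, CCAAT in 32.4% against 34.5%, CACGTG in 5.88% against 8.77%, and TATAAA in 2.94% against 5.59%. None of these motifs holds another of them, and a match describes the letters only. The 16 were SNRPA1, SNRPB, SNRPB2, SNRPC, SNRPD2, SNRPE, SNRPG, SNRNP200, LSM8, SF3A1, SF3A2, SF3A3, SF3B2, SF3B4, PRPF6 and U2AF2. Of these, SNRPA1, SNRPB2, SNRPE, SNRPG and LSM8 were not called between the fractions, and all the others were called lower in the nucleus.

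Shown are the windows of SNRPB, the Sm gene with the most counts per length, SNRPD2, a short gene low in the nucleus, and SF3B2, a long gene called at the native lamina. Capitals mark CCGGAAG or its reverse complement CTTCCGG, and each is written 5′ to 3′ on the gene's strand. SNRPB is on the minus strand at chr20:2470790-2471039, with 1 match, which begins at position -41 counted from the gene start. SNRPD2 is on the minus strand at chr19:45692317-45692566, with 1 match, at position -63. SF3B2 is on the plus strand at chr11:66052114-66052363, with 2 matches.
SNRPB: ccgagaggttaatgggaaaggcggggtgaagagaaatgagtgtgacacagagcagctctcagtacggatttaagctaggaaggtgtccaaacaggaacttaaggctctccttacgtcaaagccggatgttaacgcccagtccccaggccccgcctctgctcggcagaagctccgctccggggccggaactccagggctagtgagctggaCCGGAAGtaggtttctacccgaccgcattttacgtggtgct
SNRPD2: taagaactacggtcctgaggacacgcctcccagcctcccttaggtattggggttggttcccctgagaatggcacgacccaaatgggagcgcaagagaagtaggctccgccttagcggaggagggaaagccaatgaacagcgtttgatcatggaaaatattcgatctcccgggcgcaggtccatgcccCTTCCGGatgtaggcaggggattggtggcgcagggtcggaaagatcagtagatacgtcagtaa
SF3B2: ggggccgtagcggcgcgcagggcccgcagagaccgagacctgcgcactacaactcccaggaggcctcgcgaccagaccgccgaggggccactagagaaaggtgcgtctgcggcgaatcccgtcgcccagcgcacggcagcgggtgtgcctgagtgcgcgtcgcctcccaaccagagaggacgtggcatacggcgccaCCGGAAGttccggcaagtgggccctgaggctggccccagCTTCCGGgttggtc

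RNA of the native lamina preparation, set against nuclear RNA, held 5 of the 39 mRNAs at a higher and 2 at a lower level. The shares of all tested genes called so were 3.87% and 3.44%. The 5 that rose were SF3B2, SF3A1, U2AF2, LSM11 and SF3B1, each of at least 2000 exonic bases (4.09% of all tested genes of that length rose), and 3 of them encode SF3 subunits. The 2 that fell, SNRPE and SNRPG, are Sm core genes under 2000 bases (3.62% of all such genes fell). MALAT1 and NEAT1 together held 6206 and 13375 CPM at the native lamina, and the 4 cytosolic marker mRNAs 2136 and 2184 CPM. The former overlapped the nuclear range, and the latter lay between the ranges of the fractions. The part of these differences in the results on the members was not tested.

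SF3B2 (hg19, chr11:65819816-65836382), the gene of an SF3B subunit that contacts pre-mRNA near the branch site, had 100.2 and 137 CPM in the nuclear, 435 and 476 CPM in the cytosolic, 415 and 477 CPM in the native lamina, and 272 and 259 CPM in the PFA lamina libraries. The native lamina libraries reached the cytosolic level and lay clear of the nuclear one. Its log2 fold change over the nuclear fraction was 1.91 (SE 0.30, adjusted p = 0.0073). SF3A1 had 66.5 and 78.0 CPM in the nuclear and 189 and 219 CPM in the native lamina libraries, a log2 fold change of 1.5 (SE 0.29, adjusted p = 0.0145). SF3B1 had 210.4 and 218 CPM in the nuclear and 443 and 451 CPM in the native lamina libraries, a log2 fold change of 1.06 (SE 0.28, adjusted p = 0.0405), which was 0.91 with an adjusted p of 0.0553 with upper-quartile factors. Its cytosolic libraries, with 425 and 447 CPM, overlapped the native lamina ones.

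U2AF2 had 228 and 252 CPM at the native lamina, above its 87.3 and 111 CPM in the nuclear libraries, with a log2 fold change of 1.27 (SE 0.28, adjusted p = 0.0233). LSM11 had 71.2 and 77.9 CPM at the native lamina against 31.3 and 35.9 CPM in the nuclear libraries, a log2 fold change of 1.15 (SE 0.29, adjusted p = 0.0354). Its cytosolic libraries, at 49.3 and 76.5 CPM, overlapped the native lamina ones.

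SNRPE (hg19, chr1:203830713-203840280) had 21.6 and 25.9 CPM in the nuclear, 25.8 and 29.4 CPM in the cytosolic, 7.07 and 9.28 CPM in the native lamina, and 15.9 and 14.3 CPM in the PFA lamina libraries. Its native lamina libraries were the lowest of the 8, and both lamina preparations lay below both fractions. At the PFA lamina it was not called over the nuclear (-0.65, SE 0.32, adjusted p = 0.165) or the cytosolic fraction (-0.86, SE 0.32, adjusted p = 0.148). The log2 fold change at the native lamina was -1.54 (SE 0.32, adjusted p = 0.0195) over the nuclear and -1.76 (SE 0.32, adjusted p = 0.0078) over the cytosolic fraction. SNRPE was thus the 1 member called below both fractions at the native lamina, among 27 such genes of all tested. No member was called above both, and how many of all tested genes were is not given here. The 2 comparisons share the native lamina libraries. SNRPG had 8.21 and 11.2 CPM at the native lamina against 20.4 and 27.7 CPM in the nuclear libraries, a log2 fold change of -1.31 (SE 0.37, adjusted p = 0.0496), and its adjusted p was 0.0862 with total counts as the scale.

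None of the 7 calls held without each single library: the count was 0 without nuclear replicate 1 or without nuclear replicate 2, 2 without native lamina replicate 1, 1 without native lamina replicate 2, and 15 without either PFA lamina library. With total counts in place of TMM, which moved the median of all genes by 0.28, 12 genes were higher and 1 lower. A fit of only the 4 libraries gave 14 higher and 3 lower. The shares of all tested genes called in these other fits are not given here, so these counts cannot be set against them. For SNRPE the log2 fold change was -1.67 without nuclear replicate 1 and -1.39 without nuclear replicate 2, and for SF3B2 it was 1.71 and 2.17. Among the other spliceosome genes 5 were higher and 0 lower, with a median of 0.39, and no snRNP assembly gene was called. Over all tested genes, 3.87% were higher and 3.44% lower, with a median of -0.07.

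Set against cytosolic RNA, 13 of the 39 mRNAs were lower and 0 higher in the native lamina preparation, where 6.77% of all tested genes were lower and 6.99% higher. Of the 7 Sm core genes 6 fell: SNRPF (-1.80), SNRPE (-1.76), SNRPD2 (-1.68), SNRPB (-1.49), SNRPD1 (-1.40) and SNRPD3 (-1.17). SNRPG was at -1.14 (SE 0.37) with an adjusted p of 0.057. The other 7 that fell were LSM2, SNRPC, SF3B5, LSM5, LSM3, SF3B4 and LSM4. No gene of the U2 and U2AF, U4/U6 and U5 or U7 groups was called, and the long SF3 genes SF3B1 and SF3B2 were at 0.03 and -0.03 with SEs of 0.28 and 0.29.

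LSM2 had 14.6 and 8.69 CPM at the native lamina against 42.4 and 57.9 CPM in the cytosolic libraries, a log2 fold change of -2.10 (SE 0.40, adjusted p = 0.00854). SNRPC had 27.4 and 16.7 CPM against 99.1 and 78.2 CPM, a log2 fold change of -2.0 (SE 0.39, adjusted p = 0.00924). SF3B5 had 21.4 and 17.4 CPM against 60.7 and 79.9 CPM, a log2 fold change of -1.85 (SE 0.31, adjusted p = 0.00603). In all 3 the native lamina libraries lay well below the cytosolic ones. The smallest called differences were those of LSM4, SF3B4 and SNRPD3. LSM4 had 76.3 and 44.8 CPM at the native lamina and 115 and 147 CPM in the cytosol (-1.11, SE 0.34, adjusted p = 0.0455). SF3B4, a subunit of SF3B, had 27.8 and 24.2 CPM against 66.2 and 46.9 CPM (-1.12, SE 0.29, adjusted p = 0.0237). SNRPD3 had 81.1 and 71.2 CPM against 164 and 179 CPM (-1.17, SE 0.29, adjusted p = 0.0218). The groups did not overlap for any of these 3 genes.

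These calls divided by length. Of the 22 members under 2000 exonic bases 11 were lower, where 16.5% of all genes of that length were, and of the 17 longer members 2, SNRPD3 and LSM5, were lower, where 3.31% of all such genes were. The count of 13 was 0 without cytosolic replicate 2, 4 without cytosolic replicate 1, 8 without native lamina replicate 1 and 3 without native lamina replicate 2, and total counts gave 9 lower and 1 higher. Among the other spliceosome genes 1 was higher and 5 lower, and among the snRNP assembly genes 0 were higher and 2 lower. Over all tested genes, 6.99% were higher and 6.77% lower.

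**Figure D3:**
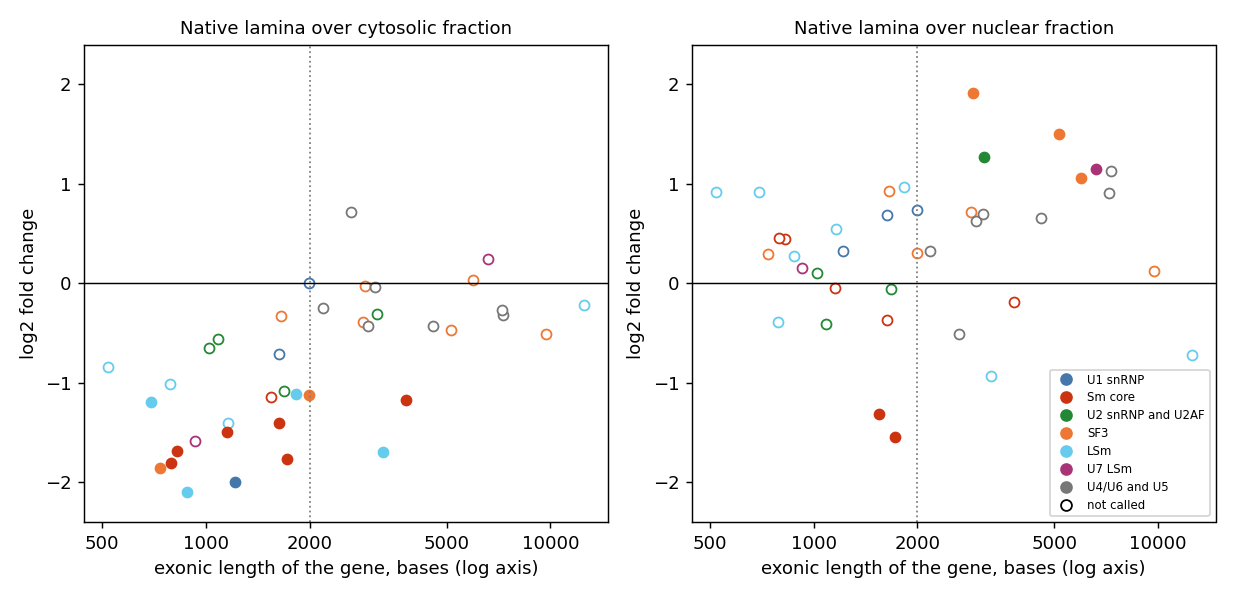
Each point is 1 of the 39 genes, with its exonic length in bases on a log axis and its log2 fold change at the native lamina over the cytosolic fraction (left) and over the nuclear fraction (right); filled points passed an adjusted p of 0.05, and the dotted line marks 2000 bases. On the left 11 of the 13 filled points lie left of the line and below 0, and on the right the 5 filled points above 0 lie right of it.

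Across the 39 genes, Spearman's correlation of exonic length with the log2 fold change at the native lamina over the cytosolic fraction was 0.642, against 0.220 across 16316 tested genes with 1 length. Over the nuclear fraction it was 0.238 against 0.179. For the nuclear over the cytosolic fraction it was 0.375 against 0.066. With the PFA lamina it was -0.346 against -0.061 over the nuclear fraction, 0.200 against 0.043 over the cytosolic fraction, and -0.646 against -0.341 over the native lamina. Genes are not independent replicates, long genes collect more counts than short ones at the same level, and the values share libraries, so these correlations describe the libraries only. LSM2 was placed at 880 bases, its length on 1 chromosome, because the files sum it over 6 sequences, and LSM8 was the longest at 12520 bases.

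The PFA lamina preparation held 14 of the 39 mRNAs at a higher and 0 at a lower level than the nuclear fraction, where 9.63% and 7.81% of all tested genes were so called. They were LSM1, LSM2, LSM4 and LSM7, the SF3 genes SF3A1, SF3B2, SF3B4 and SF3B5, the Sm core genes SNRPB, SNRPD2 and SNRPF, the U1 genes SNRPA and SNRPC, and U2AF2. Of the members under 2000 bases 11 of 22 were higher, where 13.2% of all such genes were, and of the longer ones 3 of 17, where 8.35% were. MALAT1 and NEAT1 together held 702 and 3824 CPM at the PFA lamina, and the 4 cytosolic marker mRNAs 1729 and 2890 CPM. The value of 702 lay below both cytosolic libraries, at 951 and 1276 CPM, and that of 3824 between the ranges of the fractions. Both values of the cytosolic marker mRNAs lay between the ranges of the fractions. The part of these marker levels in the result was not tested.

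LSM4 had 131 and 92.0 CPM at the PFA lamina against 23.8 and 38.0 CPM in the nuclear libraries, with no overlap and a log2 fold change of 1.86 (SE 0.35, adjusted p = 0.00853). LSM2 had 36.2 and 17.7 CPM against 7.63 and 11.7 CPM (1.51, SE 0.41, adjusted p = 0.0275). LSM1 had 18.3 and 7.73 CPM against 4.05 and 5.67 CPM (1.46, SE 0.48, adjusted p = 0.0494). For LSM1 and LSM2, PFA lamina replicate 1 was at least as far from PFA lamina replicate 2 as that was from the nuclear libraries. Among the smallest called differences, SNRPB had 323 and 225 CPM against 117 and 131 CPM (1.14, SE 0.33, adjusted p = 0.0318). SNRPD2 had 87.8 and 74.7 CPM against 31.1 and 47.8 CPM (1.05, SE 0.33, adjusted p = 0.0451), and SF3B4 had 47.1 and 37.5 CPM against 20.2 and 21.8 CPM (1.01, SE 0.30, adjusted p = 0.034). These 3 genes did not overlap between the groups either.

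The count of 14 was 0 without nuclear replicate 1, 1 without nuclear replicate 2, 2 without PFA lamina replicate 1, and 1 in a fit of only the 4 libraries compared, and LSM4 alone was called under every scaling, filter, tool and design tried that kept the 4 libraries compared. Without PFA lamina replicate 1 the log2 fold changes were 0.68 for LSM1, 0.88 for LSM2, 0.47 for SNRPC and 0.30 for SNRPF. Among the other spliceosome genes 11 were higher and 2 lower, and among the snRNP assembly genes 2 were higher and 1 lower. Over all tested genes, 9.63% were higher and 7.81% lower.

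Between the PFA lamina and the cytosolic fraction, edgeR called 0 of the 39 genes in either direction, where 0.527% of all tested genes were called higher and 0.145% lower. At an unadjusted p under 0.05, 15 of the 39 were lower and 0 higher, where 8.61% and 12.9% of all tested genes were, and the lowest adjusted p was 0.0784, for SNRPD3 at -1.10 (SE 0.29). The DESeq2 Wald test called 8 lower, no filter on low counts gave 6 lower, and the fit without PFA lamina replicate 1 gave 11 lower. The shares of all tested genes called in those other fits are not given here, so these counts cannot be set against them. No member and no gene of the other lists was called between the PFA and the native lamina, where 0% of all tested genes were. At an unadjusted p under 0.05, 8 members had higher PFA values and 1, SF3B2, a lower one, where 5.44% and 5.6% of all tested genes did. The DESeq2 Wald test called 1 member higher, as did edgeR without the filter, and without PFA lamina replicate 2 edgeR called 6 higher. Both PFA libraries lay above both native lamina libraries for 9 members, where 19.9% of all genes did, and below for 7, where 18.7% did. The 9 included SNRPB, with 323 and 225 CPM at the PFA and 152 and 88.0 CPM at the native lamina, and the 7 included SF3B2, SF3B1, PRPF8 and SNRNP200.

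The Sm core and SF3 genes were then set against each other within each library, as the median log2 CPM per kilobase of exon of the 7 Sm core genes minus that of the 8 SF3 genes. The length is that of all annotated exons of a gene together, which can exceed that of its mRNA, and multi-mapping reads were left out. The measure thus serves to compare libraries and does not give the absolute levels of the 2 sets. In the nuclear libraries the difference was 0.025 and -0.085, so both sets had about the same level by this measure. It was -0.471 and -0.531 in the cytosolic libraries and -1.178 and -1.251 at the native lamina, where the Sm level per length was 0.442 and 0.420 times that of SF3. These 3 groups did not overlap, and the replicates of each lay closer to each other than to any other group. At the PFA lamina it was -0.729 and -1.882, so that replicate 1 lay between the cytosolic and native lamina libraries and replicate 2 below all others.

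**Figure D4:**
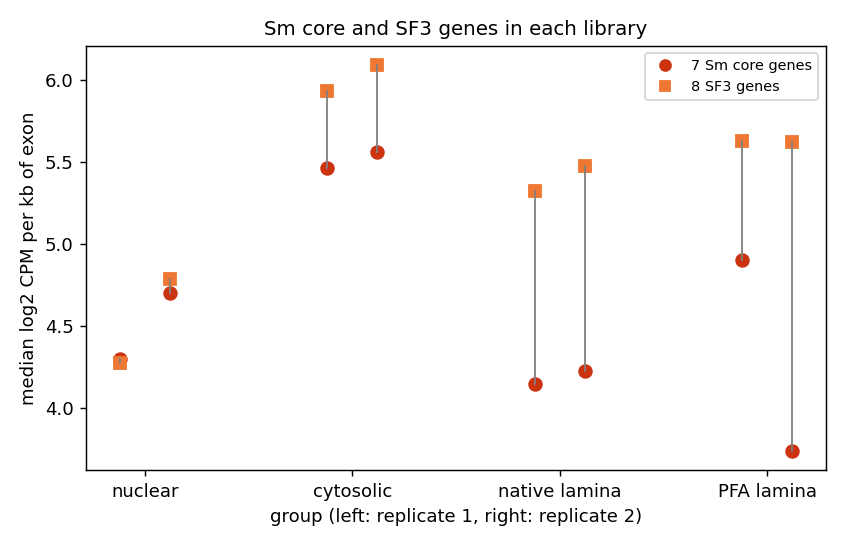
Circles give the median level of the 7 Sm core genes and squares that of the 8 SF3 genes in each library, in log2 CPM per kilobase of exon, joined by a line. The line is near 0 in the nuclear libraries and longer in each cytosolic and native lamina library, and the PFA libraries differ at -0.729 and -1.882.

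In terms of fold changes, the Sm core median minus the SF3 median was -1.01 at the native lamina over the nuclear fraction and -1.06 over the cytosolic fraction. These medians were -0.19 for Sm core and 0.82 for SF3 over the nuclear fraction, and with total counts the Sm core median was 0.11. The difference ran from -1.12 to -0.89 over the nuclear and from -1.18 to -0.87 over the cytosolic fraction when single libraries were left out. With Sm core genes under 2000 bases and SF3 genes of at least 2000 bases only, it was -1.27 and -1.19. Between the fractions the difference was 0.30, with a range of 0.03 to 0.53 without single libraries and -0.13 in the comparison of short Sm core with long SF3 genes, so its sign was not stable. At the PFA lamina the difference was -1.03 over the nuclear and -0.41 over the cytosolic fraction, and 0.71 over the native lamina, where it was 0.08 without PFA lamina replicate 1. Between short Sm core and long SF3 genes only, the value over the nuclear fraction was -0.25. No p-value belongs to these differences between gene sets. For all tested genes under 2000 bases, the median at the native lamina was -0.31 over the nuclear and -0.25 over the cytosolic fraction. For longer genes it was -0.01 and 0.16. At the PFA lamina it was 0.03 and -0.05 for the shorter genes, and -0.05 and 0.11 for the longer ones. Between the fractions it was -0.04 for the shorter and 0.17 for the longer genes. The part of gene length in the Sm core minus SF3 difference was not tested.

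Per kilobase, SNRPB ranked first of the 39 in the nuclear fraction (102 and 114 CPM per kb), the cytosolic fraction (281 and 305) and the PFA lamina (195 and 280.3). SNRPB encodes the Sm B and B′ proteins. In the nuclear fraction SNRNP70 followed with 68.7 and 78.5, overlapping PRPF8 at 66 and 71.1. At the native lamina SF3B2 ranked first with 143 and 165 CPM per kb and overlapped PRPF8 at 142 and 158, while SNRNP200 was next at 122 and 130.3. LSM8 ranked last in all 4 groups, with 3.03 to 3.46 in the nuclear and 2.08 to 2.51 CPM per kb in the cytosolic libraries. Its long annotated length enters that level.

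The genes were also placed against lamina-associated domains, large chromosome regions that touch the lamina, which were mapped in another line, the colorectal carcinoma line HCT116. None of the 39 genes overlapped any of the 378 domains of G1, the 303 of S or the 388 of G2 by a base. The median distance from gene to nearest domain was 3.19, 4.56 and 3.85 Mb. The nearest were LSM5 at 324945 bases in G1, LSM10 at 236441 bases in S and SF3A3 at 44219 bases in G2. Overlaps and distances of other genes were not computed, so these values cannot be called particular to the 39. The mRNA values and the domains come from different cell lines, so the distances say nothing on the gene positions in HEK293FT.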

How the data were processed

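RNA-seq counts per gene were deposited by the authors for 8 libraries of HEK293FT. Per the file headers they were made with featureCounts 1.5.2 on RefFlat genes of hg19, with strand ignored, a read counted for every gene it overlapped and multi-mapping reads left out. The submitters' processing notes name TopHat2 2.1.1 and Bowtie2 2.3.2. Lamina-associated domains are the authors' consensus intervals for HCT116.

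The members and the other gene lists were chosen by symbol with earlier results of these data known. Genes were filtered with filterByExpr, scaled by TMM and fitted with edgeR 4.0.16 in R 4.3.3 (quasi-likelihood test, 8 libraries, 4 groups, no block, 6 contrasts). P-values were adjusted by Benjamini-Hochberg over 16504 genes, and an adjusted p under 0.05 was a call. The script was tested on simulated data. The members named with values in every library were the highest and lowest of each role group in the fraction comparison, and those called at the lamina, or the 3 largest and 3 smallest where over 10 were called. Of each further list the 2 largest and 2 smallest called changes were named; any of the 39 could be named beside these. Each call was recomputed with other scalings (size factors of DESeq2 1.42.0, total counts, upper quartiles), without the filter or with a minimum of 10 counts per library, with the Wald test, with replicate number as a block, on the 4 libraries of a contrast alone, and with single libraries left out. The K562 samples, whose labels disagree, were not used.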

Additional observations from a re-analysis of the deposited data

How the results depend on the processing

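No call turned into a call of the opposite direction under the alternatives run; the Sm core minus SF3 difference between the fractions, which has no test, changed sign in 1 of them. The median over all genes shifted by 0.27 for nuclear over cytosolic with upper-quartile factors, and total counts moved it by 0.28 and 0.29 for the native lamina over the nuclear and cytosolic fractions and by 0.17 for the PFA lamina over either fraction. The numbers of called members, 28 between the fractions, 7 and 13 for the native lamina over the nuclear and cytosolic fractions, 14 and 0 for the PFA lamina over them, and 0 between the preparations, changed by over 1.5 times as follows. Native lamina over nuclear gave 13 with total counts and 17 with only the 4 libraries compared. PFA lamina over nuclear gave 1 with only the 4 libraries. PFA lamina over cytosolic gave 6 with no filter and 8 with DESeq2, and PFA over native lamina gave 1 with either. Leaving out single libraries gave from 16 to 33 for nuclear over cytosolic, from 0 to 15 for native lamina over nuclear, from 0 to 18 for native lamina over cytosolic, from 0 to 20 for PFA lamina over nuclear, from 0 to 11 for PFA lamina over cytosolic and from 0 to 6 for PFA over native lamina. The cause was not tested, beyond that such fits hold fewer libraries. For none of the alternatives is the share of all tested genes called given here, so a change in members is not told from a general change in calls. The Sm core minus SF3 difference ranged, without single libraries, from 0.03 to 0.53 for nuclear over cytosolic, from -1.12 to -0.89 for native lamina over nuclear, from -1.18 to -0.87 for native lamina over cytosolic, from -1.42 to -0.79 for PFA lamina over nuclear, from -0.56 to -0.19 for PFA lamina over cytosolic and from 0.08 to 0.83 for PFA over native lamina; restricted to short Sm core and long SF3 genes it was -0.13 between the fractions and -1.27 and -1.19 for the native lamina over the nuclear and cytosolic fractions.

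A replicate block gave 29, 8, 16, 16, 0 and 0 called members in the same order. Same-numbered libraries were not shown to be paired: the correlations of their deviations across groups ran from -0.055 to 0.333, and the labels do not say what a shared number stands for. The low depth of PFA lamina replicate 2, with 2321291 counts, limits the genes with the fewest counts most, such as LSM6 with 9.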
